A study of Homo sapiens with 6 samples.

Results

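The comparison described here is late against early interferon-gamma in the cultures transfected with a BTN1A1 expression vector: 1 library after 48 h and 1 after 24 h, chosen by their labels, 2 of the 6 libraries of the series. The labels give the cells as PC3, a human prostate cancer line established from a tumour that had spread to bone. BTN1A1 is a butyrophilin, a membrane protein whose family resembles B7 molecules. Both libraries had been given 100 ng/ml interferon-gamma; the values beside them come from the untreated library of the same vector, which was labelled 48 h, and from the empty vector (EV) libraries, untreated at 48 h or given the same dose for 24 or 48 h. Total RNA was counted with the nCounter PanCancer IO 360 panel, in which fluorescent barcodes bound to single RNA molecules are counted without amplification. Whether the vector was stable and how many clones the cultures held is not stated. With 1 library a side there is no replicate and no test, and no p-value is given. A gene is called higher or lower where it differed at least 2-fold, which is a rule of size only.

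Interferon-gamma is a cytokine of T and NK cells. It binds a receptor made of IFNGR1 and IFNGR2 and acts through the kinases JAK1 and JAK2 on STAT factors, which bind GAS elements in the promoters of early genes such as the transcription factor IRF1. IRF1 and related factors then act on interferon-stimulated response elements of later genes, among them those for antigen presentation. Differences between an early and a late time also hold whatever else changes as a culture grows. Nutrients can run down, cells can become dense, and stress factors such as ATF3 and enzymes of glycolysis can follow. Nutrients and density were not measured here, and their part in these values was not tested.

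The 48 h library was the shallower of the pair, with 221633 counts over 770 probes against 297242 at 24 h, and totals over the series ran from 221633 to 441611. The 20 housekeeping genes had a geometric mean of 407.1 at 48 h and 586.0 at 24 h, and counts were divided by factors of 0.809 and 1.16 to match. The background behaved differently. The median of 88 marker probes of lymphoid and myeloid cells, of which 0 had a count of 0, was 21 counts at 48 h and 20 at 24 h, so after scaling it stood at 25.97 against 17.18, and the summed scaled level of these probes was 2401.5 against 1623.7. Scaling by depth therefore raises every probe at background in the later library. For that reason scaled values under 50 were raised to 50, a level that 5 of the 88 marker probes reached at 48 h and 1 at 24 h, and 359 genes with at least 50 in either library were compared; 411 were under this floor in both.

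The labels were checked as far as the panel allows. BTN1A1 has 0 probes here, so the transfected gene was not measured. Of the 2 epithelial markers measured, EPCAM stood at 29 counts at 24 h and 59 at 48 h, against 242 and 210 in EV, and CDH1 at 26 and 31 against 197 and 145. STAT3, a gene that PC3 is known to have lost by deletion, stood at 593 and 444 counts, against 10 and 17 in EV. These values go against the label, so the pair is called the libraries labelled BTN1A1, and a difference from EV may also be one of cell origin.

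After 48 h 19 of 359 genes were at least 2-fold higher than after 24 h (5.29%) and 5 were lower (1.39%), as the plot of all probes shows. The genes furthest above were ATF3, a stress-induced transcription factor, and PCK2, the mitochondrial phosphoenolpyruvate carboxykinase; both are known targets of the amino acid response. Furthest below were TFRC, the transferrin receptor, and the histone gene H2AFX. The genes called higher also held interferon-inducible ones, HLA-E, IL15, IFIH1 and APOL6 among them. Most chemokine, class II and checkpoint genes of the interferon response stayed at background at both times, as did 411 of all 770 probes. The median log2 difference over the 359 genes was 0.22 under this scaling, so a gene at 0 stood below the middle of the panel.

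**Figure D1:**
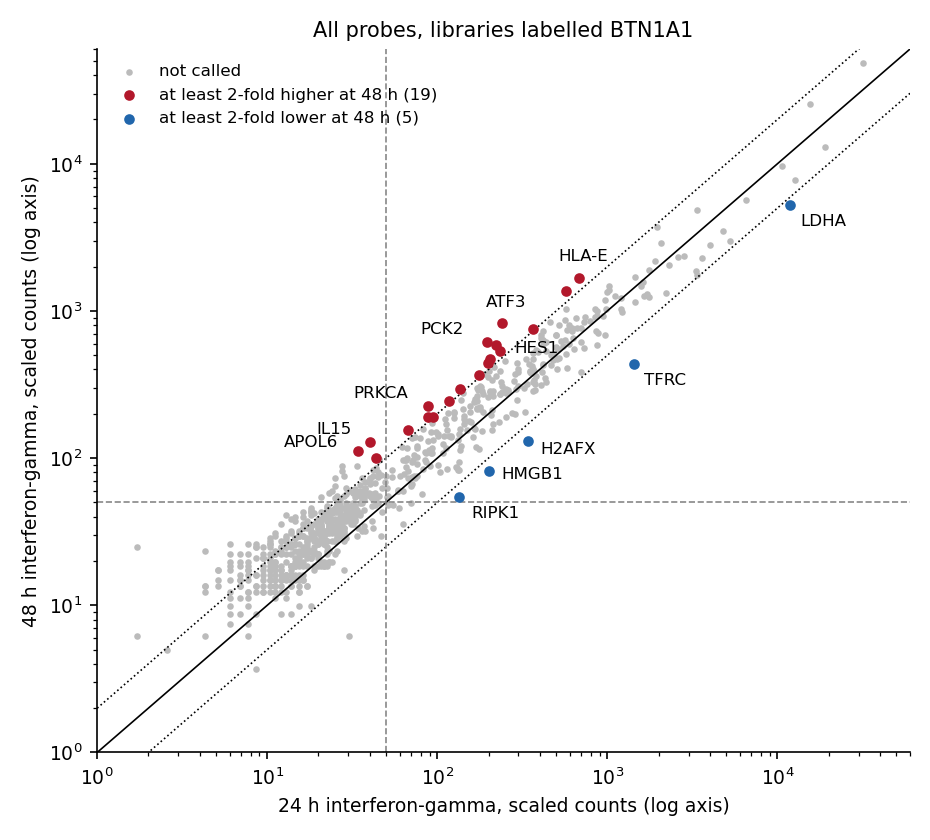
Scaled counts of every probe after 24 h (x axis) and 48 h (y axis) of interferon-gamma in the libraries labelled BTN1A1, both on log axes. The solid line marks equal values, the dotted lines a 2-fold difference and the dashed lines the floor of 50; the 19 red genes are called higher and the 5 blue ones lower, and the cloud under the floor lies above the line of equality.

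How many genes pass depends on the scaling. Over 7 ways of scaling, 3 genes stayed at least 2-fold higher in each (0.836%), namely ATF3, PCK2 and IL15, and 4 stayed lower in each (1.11%), namely TFRC, H2AFX, HMGB1 and RIPK1. With the medians of both libraries made equal, 4 genes were higher and 15 lower, so the share of higher genes among all calls went from 79.2% to 21.1%. Quantile normalization gave 9 higher and 5 lower (64.3%). TMM and median-of-ratios factors over all 770 probes gave 13.0% and 12.5%, and over the 293 genes above the floor in both libraries TMM gave 47.1% and the median of ratios 9 higher and 9 lower. The log2 ratio of the size factors, 48 h over 24 h, ran from -0.54 with well-counted housekeeping genes to -0.05 with the median of ratios over all probes.

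**Figure D2:**
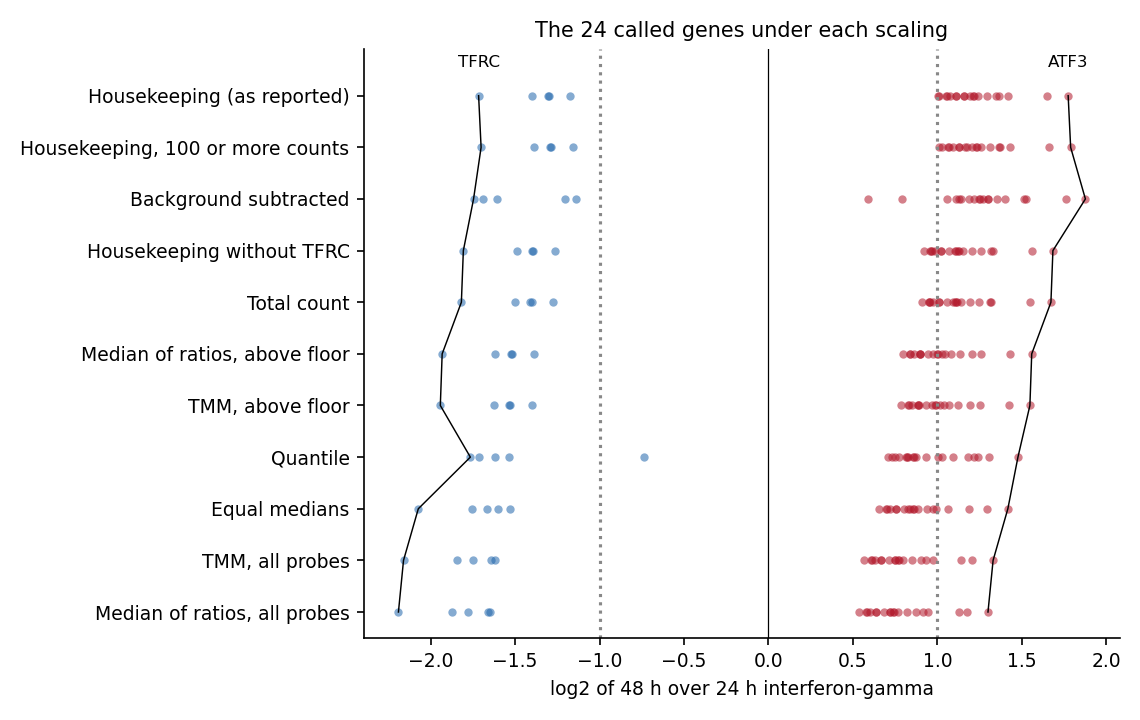
Log2 difference of 48 h over 24 h for the 24 called genes (points; red, called higher as reported; blue, called lower) under each scaling (rows), with black lines joining ATF3 and TFRC and dotted lines at 2-fold. Between the first and the last row the red points move toward the 2-fold line or past it, ATF3 from 1.77 to 1.30. The blue points move away from it, TFRC from -1.72 to -2.19. Of the 19 red genes 4 stay beyond the line with equal medians, and 3 with TMM or the median of ratios over all probes. Among the blue genes LDHA alone falls inside it, under quantile normalization.

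With no replicates, the housekeeping genes give the nearest gauge of how far genes scatter between these libraries. Their log2 differences had an SD of 0.56 (20 genes) and ran from -1.72 for TFRC to 0.62 for GUSB, a lysosomal glucuronidase. TFRC stood apart from the other 19, whose SD was 0.39 once it was left out, and the next lowest of the 20 was the ubiquitin gene UBB at -0.56. In EV the same 20 genes had an SD of 0.30. Scaling without TFRC, an alternative added after the data had been seen, gave 14 genes higher and 6 lower.

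Of the stress and amino acid genes, ATF3 stood at 280 counts after 24 h and 665 after 48 h, beside 1063 in the untreated library. The later value was 3.42-fold the earlier one, a log2 difference of 1.77 with a 95% interval of 1.57 to 1.98. This interval, here and below, is an exact conditional binomial one for the ratio of the counts as deposited, and it covers counting error only. PCK2 stood at 227 and 494 counts, beside 717 untreated, a log2 difference of 1.65 (interval 1.42 to 1.88). In both genes the 24 h library was the low one. The treated 48 h library lay near the untreated one, which was also labelled 48 h, at log2 differences of -0.22 for ATF3 and -0.08 for PCK2. ATF3 and PCK2 were the 2 genes called higher in each of the 12 other settings tried, with log2 differences from 1.30 to 1.88 and from 1.17 to 1.76. Of the 12 measured genes of this list, 10 were compared, 2 were higher and 0 lower, and the list median was 0.40 beside 0.22 for all genes. The arginase ARG2 stood at 490 and 595 counts (log2 difference 0.81). SLC7A5, the large neutral amino acid transporter, pointed the other way, with 1007 and 471 counts and a log2 difference of -0.57.

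The promoter of ATF3 is shown because C/EBP-ATF elements are a known mark of amino acid response genes. The element was searched as TGATGNAA on both strands, from 250 bases before to 50 after each RefSeq start (GRCh38.p14). The stretch lies at chr1:212565196-212565243 on the plus strand, with the match in capitals, beginning 191 bases before the start.
ATF3: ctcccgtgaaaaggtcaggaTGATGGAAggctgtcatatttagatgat
Of 27305 promoters of that length 3.7% hold this element, and of the 14 genes called higher that had an entry ATF3 was the 1 that did. The share over the genes of the panel is not given. PCK2 had no match in its window. A match is a description of letters and not of binding.

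Among class I and peptide-loading genes HLA-E, the nonclassical class I molecule read by NK cells through NKG2A, had 363 counts in the untreated library, 795 after 24 h and 1356 after 48 h. Its log2 difference between the times was 1.30 (interval 1.17 to 1.42). Scaled to the housekeeping genes the 3 libraries were ordered untreated, 24 h and 48 h, and at 48 h it stood 2.36 above the untreated library on the log2 scale. HLA-B had 669 and 832 counts (log2 difference 0.84) and the immunoproteasome subunit PSMB9 207 and 251 (0.80). The peptide transporter TAP1, at 490 and 485 counts (0.51), was already far above the 119 counts of the untreated library at 24 h. HLA-C (407 and 316 counts, 0.16) and the light chain B2M (2226 and 1773, 0.20) differed less, and TAP2 was at -0.10. Of 14 measured members 10 were compared, 1 was higher and 0 lower, with a list median of 0.44. PSMB8 and the class I transactivator NLRC5 were under the floor at both times, at 23 and 17 and at 32 and 25 counts. The calls of HLA-E ended under TMM and median-of-ratios factors over all probes and with equal medians, where its value went down to 0.82.

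The antiviral genes divided in a similar way. IFIH1, the sensor MDA5 of long double-stranded RNA, had 72 counts in the untreated library, 78 after 24 h and 126 after 48 h, a log2 difference of 1.22 between the times (interval 0.80 to 1.64). APOL6, an interferon-inducible apolipoprotein L, stood at 21, 40 and 90 counts, so that its 24 h value was under the floor and its log2 difference of 1.15 is measured from the floor; it ran from 0.92 to 1.16 over the 7 scalings. IL15, the cytokine of NK and memory T cells, had 42, 47 and 104 counts, also under the floor at 24 h, with a log2 difference of 1.36 from the floor (1.13 to 1.37 over the 7 scalings, and 1.06 with the background subtracted). IL15 and APOL6 were thus under the floor in the untreated and 24 h libraries and above it at 48 h, while IFIH1 was above it in each. The calls ended in 6 of the 12 other settings for IFIH1, in 5 for APOL6 and in 1 for IL15, a floor of 100.

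Most other interferon-stimulated genes that could be measured were near the panel median between the times. DTX3L and PARP9, partner proteins of the interferon response, had 428 and 383 counts (log2 difference 0.37) and 182 and 184 (0.54), beside 120 and 51 untreated. IFIT3, which binds viral RNA together with other IFIT proteins, had 76 and 70 counts (0.41), ISG15, a ubiquitin-like modifier, 85 and 85 (0.53), and IFITM1, a membrane protein that blocks viral entry, 291 and 372 (0.88). Of 30 antiviral genes 17 were compared, 2 were higher and 0 lower, and the median was 0.33. That median is 0.10 above the one for all genes, and with equal medians it became -0.02, so its sign rests on the scaling. PARP9, DTX3L, TAP2, ENO1, ALDOA, RRM2, MKI67 and HEY1 lie outside the rule for named genes and were picked with their values known.

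In the upstream pathway most genes lay near the panel median. IRF1 had 75 counts in the untreated library, 482 after 24 h and 313 after 48 h, a log2 difference of -0.10 between the times (interval -0.31 to 0.11). That interval holds 0 under this scaling, but over the 7 scalings the difference ran from -0.57 to -0.08. IRF8, a factor of the same family, had 167 and 149 counts (0.36) beside 58 untreated, and IRF9 78 and 66 (0.28). The receptor chain IFNGR1 had 601 and 650 counts (0.64), IFNGR2 405 and 353 (0.33), JAK1 416 and 307 (0.09), JAK2 106 and 71 (-0.05), STAT2 198 and 214 (0.64) and STAT3 593 and 444 (0.11). The feedback inhibitor SOCS1, at 16 and 12 counts, was under the floor at both times. Of 19 genes in this list 16 were compared, 1 was higher and 0 lower, with a median of 0.22, equal to that of all genes.

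Promoters of 4 interferon genes are shown. They set IFIH1, called higher at 48 h, beside TAP1 and IFIT3, which were higher than untreated at 24 h already, and beside the early factor IRF1. Capitals mark interferon-stimulated response element cores, which are 2 blocks of GAAA with any 2 bases between them, and in IRF1 the GAS element, searched as TTCNNNGAA, in the same windows and on both strands, with overlapping matches run together. They lie at chr2:162318685-162318863 (minus strand), chr6:32853803-32853858 (minus), chr10:89327821-89327904 (plus) and chr5:132490869-132490917 (minus), in the order printed.
IFIH1: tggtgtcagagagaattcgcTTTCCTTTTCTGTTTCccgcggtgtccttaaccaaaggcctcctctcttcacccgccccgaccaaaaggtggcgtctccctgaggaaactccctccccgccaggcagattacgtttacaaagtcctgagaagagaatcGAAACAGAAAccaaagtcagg
TAP1: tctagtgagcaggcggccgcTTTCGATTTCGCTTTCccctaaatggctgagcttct
IFIT3: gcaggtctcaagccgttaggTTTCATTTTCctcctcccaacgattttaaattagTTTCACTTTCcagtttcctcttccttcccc
IRF1: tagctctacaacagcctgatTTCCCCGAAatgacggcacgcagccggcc
IFIH1 holds 3 such cores, TAP1 and IFIT3 2 each. PSMB9, also above the untreated library at 24 h (log2 difference 1.82), was searched too and held 0 of the 3 elements, so it is not shown. Of all 27305 promoters 3.6% hold the response element core and 7.9% the GAS element. These shares are not of the panel, whose own share is not given, so they are no like measure for the called genes. Among the 14 genes called higher that had an entry, 2 hold the core, IFIH1 and the apoptosis gene BBC3, and 0 the GAS element; of the 5 genes called lower, 0 hold any of the 3 elements. HLA-E, IL15, APOL6 and TNKS had no entry.

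Much of the interferon programme could not be followed in time because it stayed at background. The tryptophan enzyme IDO1 stood at 26 and 37 counts, the GTPases GBP1, GBP2 and GBP4 at 15 and 22, 21 and 28, and 34 and 37, and the chemokines CXCL9, CXCL10 and CXCL11 at 10 and 13, 16 and 7, and 5 and 19. Of 11 interferon-inducible chemokines 11 were under the floor at both times, of 14 class II genes 9, of 29 checkpoint genes 17 and of 30 antiviral genes 13. Beside them, 411 of all 770 probes were under it at both times, so of these lists the chemokines alone lay far above the share of the panel. In EV the same lists had 7, 4, 11 and 0 genes under the floor. HLA-DRA had 18 and 13 counts, CD274 (PD-L1) 7 and 18, PDCD1LG2 (PD-L2) 42 and 40, ICAM1 12 and 11 and MX1 13 and 13. Values under the floor were not compared, whatever their counts. The invariant chain CD74 had 47 and 54 counts, above the floor in the later library, as were HLA-DQB1 (44 and 56) and HLA-DMA (35 and 48), with log2 differences of 0.42, 0.47 and 0.25 from the floor; HLA-DMB had 108 and 87 (0.21). Of 14 class II genes 5 were compared and 0 were called.

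The genes lower at 48 h were of iron uptake, chromatin, cell death signalling and glycolysis. TFRC had 545 counts in the untreated library, 1664 after 24 h and 352 after 48 h, so that the 24 h value was 3.28-fold the later one (log2 difference -1.72, interval -1.89 to -1.55). H2AFX, the histone variant phosphorylated at DNA breaks, had 139, 399 and 105 counts (-1.40). HMGB1, a chromatin protein that also acts as a danger signal outside the cell, had 93, 235 and 66 (-1.31), and RIPK1, a kinase of TNF receptor signalling, 60, 156 and 44 (-1.30). LDHA, which turns pyruvate into lactate, had 5652, 13827 and 4261 counts (-1.17, interval -1.22 to -1.12). In each of the 5 the 24 h library was the high one and both 48 h libraries lay close together. TFRC, H2AFX and HMGB1 were called in all 12 other settings; the call of RIPK1 ended under a floor of 100 and that of LDHA under quantile normalization, at -0.74.

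Other glycolytic enzymes below 0 that did not reach 2-fold included, with ENO1 and ALDOA picked with their values known, pyruvate kinase PKM at 6133 and 2403 counts (-0.83), TPI1 at 3844 and 1521 (-0.81), the enolase ENO1 at 14726 and 6298 (-0.70) and ALDOA at 5571 and 2839 (-0.45). The muscle phosphofructokinase PFKM, at 257 and 291 counts, was at 0.70, and VEGFA, a hypoxia-induced ligand, at 107 and 121 counts, also at 0.70. Of 24 hypoxia and glycolysis genes 23 were compared, 1 was lower and 0 higher, and the list median was 0.21 beside 0.22 for the panel. Of the 23 genes 15 were above 0 and 8 below, and 13 were below the panel median. Several of these enzymes are among the most abundant messages on the panel. The 38 genes in the highest class of scaled count had a median log2 difference of -0.15, against 0.21 to 0.33 in the 4 classes of lower count. The part of abundance in these values was not tested.

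Relative to the panel, proliferation genes were lower at 48 h than at 24 h. Of 31 compared cyclin and mitosis genes 23 were below the median of all genes, 1 was at least 2-fold lower (HMGB1) and 0 were higher, and the list median was -0.10, beside 0.22 for the panel. CCNB1, the mitotic cyclin B1, stood at 3936 and 1421 counts (-0.94), the G1 cyclin CCNE1 at 384 and 166 (-0.68), the ribonucleotide reductase subunit RRM2 at 4168 and 1839 (-0.66), MKI67 at 1128 and 551 (-0.51) and CCND1 at 509 and 268 (-0.40). Of these, CCNB1 had 1861 counts untreated, CCNE1 238 and CCND1 308. The 24 h library was the highest of the 3 for each once scaled. At 48 h they stood at log2 differences of 0.07, -0.06 and 0.26 from the untreated library. CCNB1 is also in the highest class of scaled count, and the part of abundance was not tested. The pocket protein RBL2, a repressor of cell cycle genes, was at 0.88, with 532 and 681 counts. With equal medians the list median was -0.46 against -0.05 for the panel. That setting moves all genes above the floor at both times alike, so it is no further check. Of 18 compared DNA repair genes 6 were below the panel median, and the list median was 0.37; MRE11, a nuclease of break repair, was higher (426 and 613 counts, 1.05) and H2AFX lower. NEIL1, a glycosylase of base excision repair, was at the 2-fold threshold with 51 and 81 counts, was lost in 10 of the 12 other settings and is named with its values known. BAX, which permeabilises mitochondria, was at -0.86 (812 and 310 counts), while BBC3, the BH3-only protein PUMA, was at 1.07 (136 and 199).

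HES1, the Notch target and repressor, had 671 counts untreated, 256 at 24 h and 475 at 48 h, a log2 difference of 1.42, called in all other settings except TMM and median-of-ratios factors over all probes. TNKS, a tankyrase that controls Axin, was at 1.16 (230 and 357 counts), and of 17 compared Notch and Wnt genes 2 were higher and 0 lower, with a median of 0.20. PRKCA, protein kinase C alpha, had 150, 103 and 182 counts (1.35, interval 0.99 to 1.71), and PRKAA2, a catalytic subunit of AMP-activated kinase, 536, 271 and 430 (1.19). With the nuclear receptor PPARG (205 and 296 counts, 1.06) these made 3 higher and 0 lower of 18 compared AKT and mTOR genes, where 5.29% of all genes were called higher; under every scaling 0 of the 18 were called. The mTOR inhibitor DEPTOR (164 and 225 counts) stopped just short, at 0.98. Of the remaining calls, DDB2, a damage recognition factor, was at 1.21, FCGRT, the neonatal Fc receptor, at 1.11, NFKB2, a noncanonical NF-kB subunit, at 1.11 and FLT1, a VEGF receptor, at 1.01. The calls of TNKS, PRKAA2, DDB2, FCGRT, NFKB2, PPARG, BBC3, MRE11 and FLT1 ended in 6 to 9 of the 12 other settings, and that of PRKCA in 3.

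Set beside the untreated library, the called genes fell into 3 courses. In 14 of the 19 genes called higher, the 24 h library was the lowest, and 12 of these 14 stood within 0.3 of the untreated library at 48 h on the log2 scale. In the other 5, HLA-E, IFIH1, IL15 and APOL6 among them, scaled counts were ordered untreated, 24 h and 48 h, although the first step was only 0.05 on the log2 scale for IFIH1 and lay under the floor for IL15 and APOL6. In all 5 genes called lower the 24 h library was the highest, and all 5 stood within 0.3 of the untreated library at 48 h. Over the 284 genes above the floor in the 3 libraries, the 24 h library was the lowest for 163 (57.4%) and the highest for 82 (28.9%). Across those genes the typical distance between the treated 48 h and the untreated library, taken as the median absolute deviation of their log2 differences, was 0.12. It was 0.32 between the treated 48 h and 24 h libraries and 0.34 between the treated 24 h and the untreated one. In EV, over 354 genes, the corresponding values were 0.41, 0.35 and 0.42. The untreated library was labelled 48 h, so time in culture and time with interferon-gamma cannot be told apart in a comparison of 48 h with 24 h, and anything particular to the 24 h library enters every one of these courses. Of the 284 genes 9 stood at least 2-fold above the untreated library at 48 h and 0 below; among them were PSMB9 (2.62), IRF1 (2.52), TAP1 (2.49), HLA-E (2.36), DTX3L (2.13), IRF8 (1.82), IFIH1 (1.27) and the peptide-loading protein TAPBP (1.26).

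**Figure D3:**
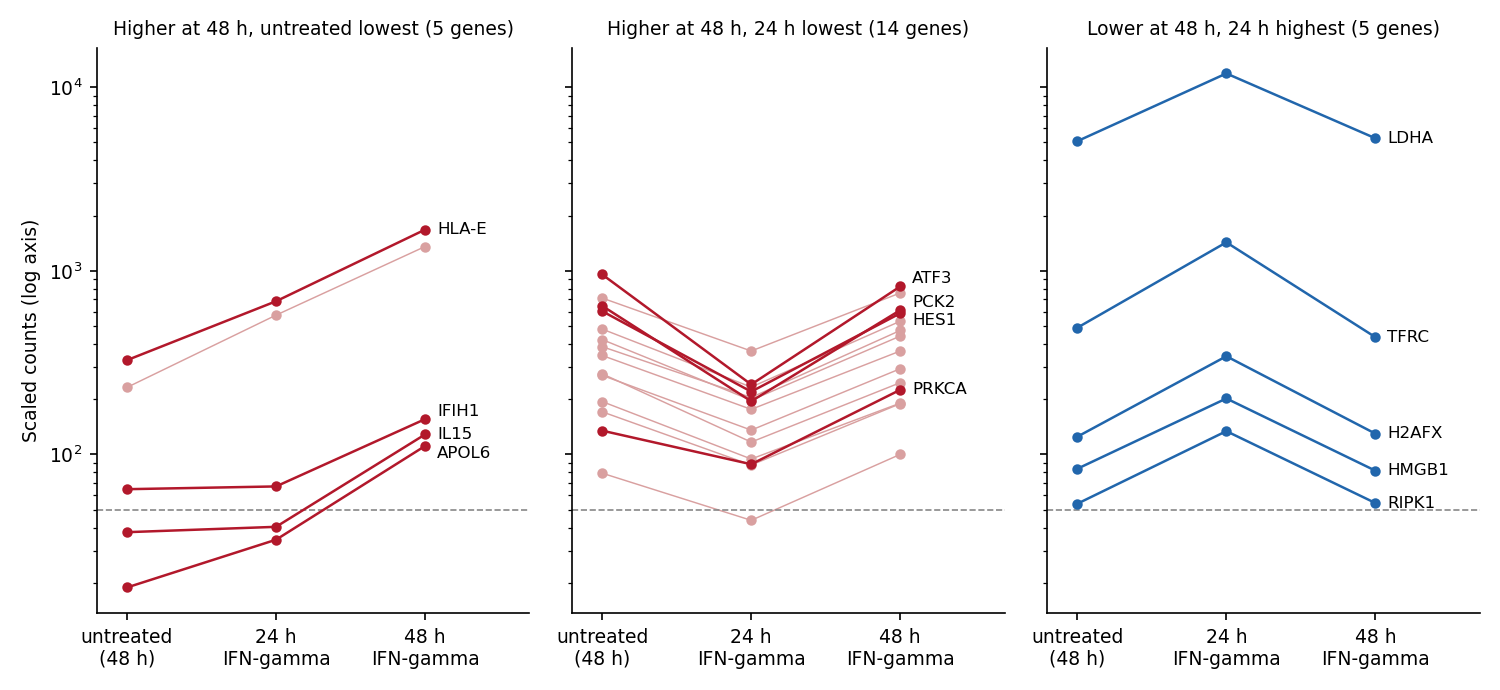
Scaled counts (log axis) of the 24 called genes in the untreated library and the 24 h and 48 h interferon-gamma libraries, all labelled BTN1A1; each line is a gene, and the dashed line is the floor of 50. The 5 genes at left have their highest point at 48 h and their lowest untreated, while in the 14 genes at centre the 24 h point is the lowest and in the 5 at right the highest. The ends of a line lie within 0.3 on the log2 scale for 12 of the 14 and for all 5, and PRKCA, at 0.74, is furthest from that.

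Most gene lists straddled the panel median, which the plot of lists shows. The lowest median belonged to the cyclins and mitosis genes (-0.10) and the highest to the 5 compared angiogenic genes (0.71), where FLT1 was the call and PDGFA (39 and 72 counts, 0.83) and VEGFB (145 and 165 counts, 0.71) lay below 2-fold. PDGFA was under the floor at 24 h, so its value is measured from the floor and could not fall below 0. Of 12 compared checkpoint and ligand genes 0 were called. The NK ligand ULBP2 (83 and 110 counts) was at 0.93 and the poliovirus receptor PVR (86 and 112) at 0.91. Of 14 compared NF-kB genes NFKB2 was higher and RIPK1 lower, with RIPK2, a kinase of NOD receptors, at 0.99 and the inhibitor NFKBIA at 0.49. For early response and growth factor genes 0 of 15 were called, NFIL3 being at 0.71 and EGR1 at -0.08.

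**Figure D4:**
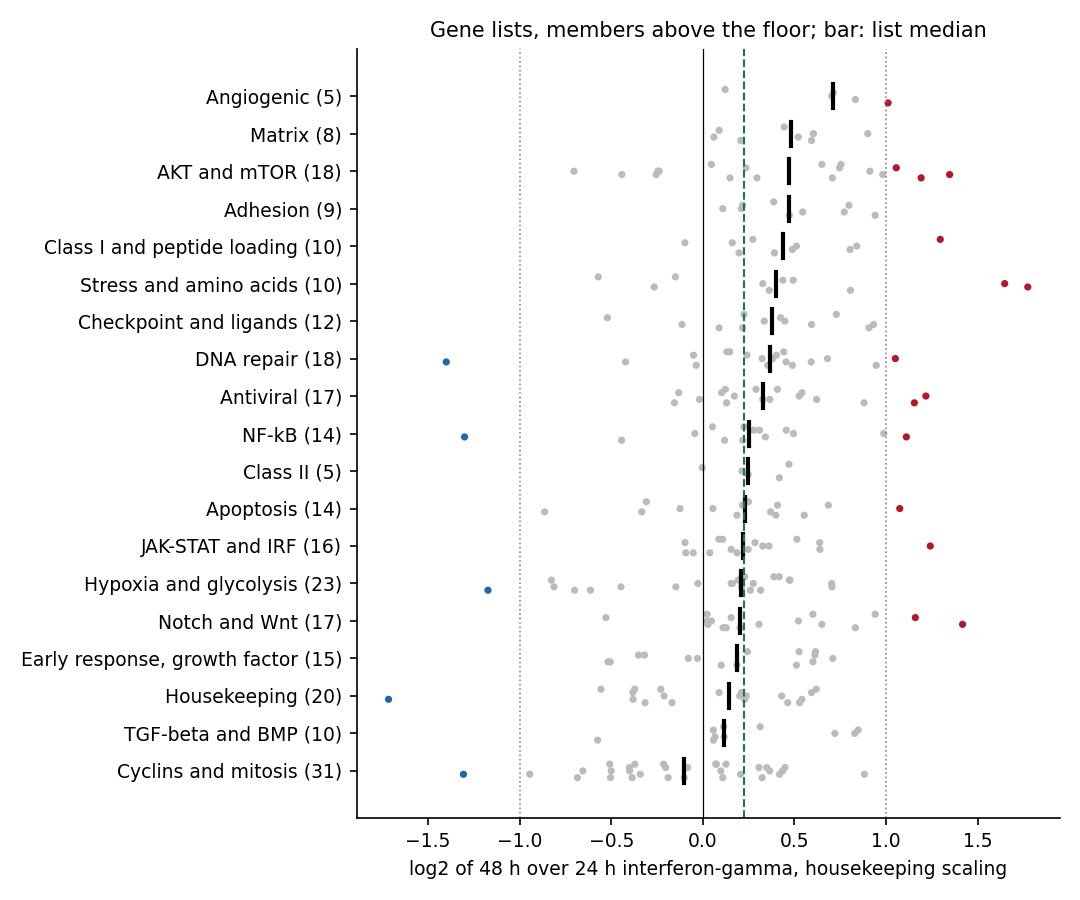
Log2 difference of 48 h over 24 h interferon-gamma for the compared members of 19 gene lists (points; red, at least 2-fold higher; blue, lower), with the number compared in brackets and the list median as a black bar. The green dashed line is the median of all compared genes, 0.22; the cyclins and mitosis list has the lowest median, -0.10, and most lists straddle the green line.

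The same step from 24 to 48 h in EV gave 31 of 414 genes higher (7.49%) and 5 lower (1.21%). The pairs share no library. Of the genes called higher, ATF3 and PCK2 were so in both vectors, which is 10.5% of the 19 genes and 6.5% of the 31, and 0 genes were lower in both. ATF3 had 117 and 690 counts in EV (log2 difference 2.86) and PCK2 100 and 501 (2.63), each larger than in the libraries labelled BTN1A1, a difference that was not tested. The courses differed, however. The untreated EV library, labelled 48 h, had 69 counts of ATF3 and 157 of PCK2, far below the treated 48 h library. In the libraries labelled BTN1A1 the untreated library lay near the treated 48 h one, and the 24 h library was the low one. HEY1, another Notch target, was at 1.83 in EV (571 and 1650 counts) and at 0.52 here (3934 and 3923). In EV the class II list had 7 of 10 compared genes at least 2-fold higher, with CD74 at 1.99 (1068 and 3441 counts) and HLA-DRA at 1.88 (495 and 1473), where in the libraries labelled BTN1A1 0 of 5 were. HLA-E, by contrast, was at 0.30 in EV, having 3352 and 3345 counts, and IL15 and APOL6 at 0.25 and 0.29. For the genes called lower, EV gave TFRC -0.68 (2477 and 1256 counts), LDHA -0.45 and H2AFX -0.46.

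**Figure D5:**
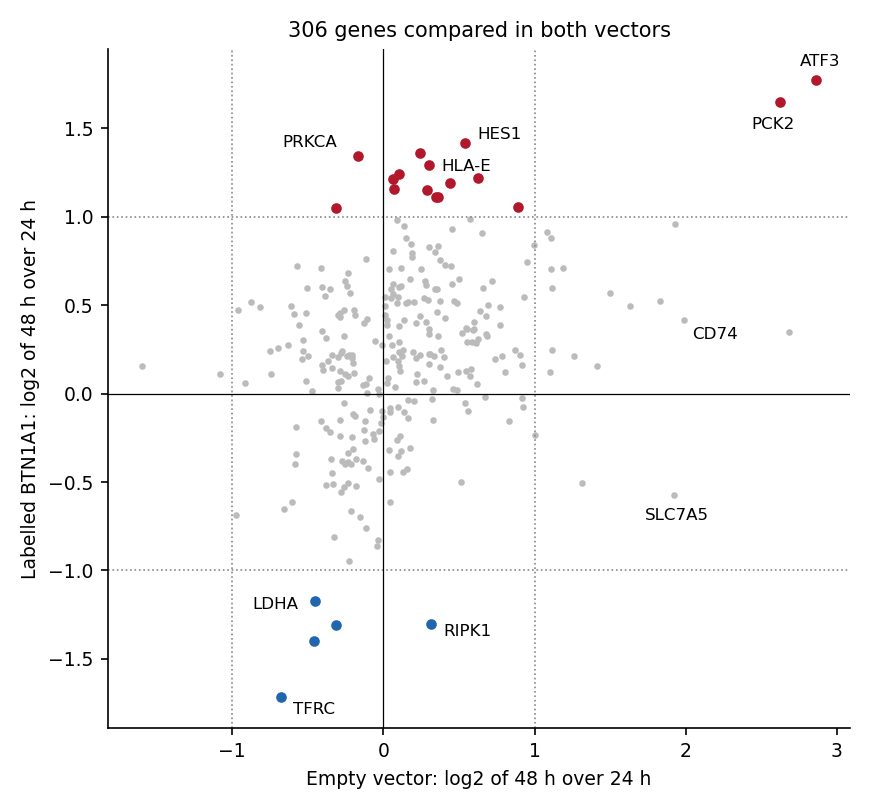
Log2 difference of 48 h over 24 h interferon-gamma in EV (x axis) and in the libraries labelled BTN1A1 (y axis) for the 306 genes compared in both vectors; red and blue mark genes called in the latter, and dotted lines mark 2-fold. ATF3 and PCK2 lie at upper right, beyond 2-fold on both axes, and SLC7A5 at lower right, at 1.92 in EV and -0.57 in the other vector.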

How the data were processed

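Barcodes of the nCounter PanCancer IO 360 panel were counted in 6 libraries, per the labels' protocols. The deposited values are counts per probe, 770 probes and 1 column a library; all 4620 values were whole numbers. The counting software and any use of control probes are not given in the sources used here, and no control probe was used. Each group, taken from the treatment label, held 1 library.

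Counts were scaled to the geometric mean of 20 housekeeping genes, brought to 503.4, and floored at 50; genes at 50 or more in either library were compared and 2-fold differences called. Intervals of 95% are exact conditional binomial ones (scipy 1.17.1). Factors came from edgeR 4.0.16 (TMM) and DESeq2 1.42.0 (median of ratios); neither was used for a test. The fold calculation was tested on simulated data. Of 770 probe names 756 matched current symbols in RefSeq (GRCh38.p14), 6 only synonyms and 8 neither; HLA probes may bind related copies. Promoters are RefSeq's.

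Members and the 26 gene lists were chosen with earlier results of these data known. Named genes were up to 15 of the largest calls in each direction, up to 4 members per list with the largest difference and a fixed set of interferon pathway genes. Some of these genes are not reported here, though the counts include them. The 12 alternatives, 3 of them added after the data had been seen, are TMM and median of ratios over all probes or over genes above the floor, total count, equal medians, quantile normalization, other housekeeping sets, background subtraction and floors of 20 and 100.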

Additional observations from a re-analysis of the deposited data

Results flagged for a closer look

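Between 24 and 48 h of interferon-gamma, 4 of the genes named had log2 differences of opposite sign in the BTN1A1 and EV vectors, with at least a 2-fold difference in one of them. Named genes were partly picked by the size of their difference in the pair labelled BTN1A1. How many of the 306 genes compared in both vectors meet this rule is not given, so the count has no share to be judged by. Each vector had 1 library a time, and the difference between the vectors was not tested. SLC7A5, the amino acid transporter, was at -0.57 (log2) in the libraries labelled BTN1A1, with 1007 and 471 counts, and at 1.92 in EV, with 275 and 847. RIPK1 was at -1.30, with 156 and 44 counts, and at 0.32 in EV, with 219 and 221. PRKCA was at 1.35 against -0.17 in EV, where it had 387 and 279 counts. MRE11 was at 1.05 against -0.32 in EV, with 637 and 415 counts. For scale, the housekeeping genes had an SD of 0.30 in the EV pair and 0.56 in the pair labelled BTN1A1. The EV values of RIPK1, PRKCA and MRE11 were near or under the first, and the -0.57 of SLC7A5 was near the second. The direction of these values is therefore not secure. The 2-fold call of MRE11 was lost in 8 of the 12 other settings, that of PRKCA in 3 and that of RIPK1 in 1.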

How the results depend on the processing

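Both counts of calls moved with the scaling. The 19 genes higher became 3 with TMM and 3 with median-of-ratios factors over all probes, 4 with equal medians, 8 and 9 with these same 2 kinds of factor over the genes above the floor, 9 with quantile normalization and 45 with a floor of 20. The 5 lower became 20, 21, 15, 9 and 9 under the first 5 of these. The floor of 20 compares 641 genes, and the scaled background of the 48 h library lies above it. Under total count, background subtraction, housekeeping genes at 100 or more counts, housekeeping genes without TFRC and a floor of 100 both counts stayed within 1.5 times. Factors over all probes rest largely on probes at background, since 411 of 770 were under the floor at both times. The median of all compared genes moved by -0.37 with TMM, -0.40 with the median of ratios, -0.27 with equal medians, -0.22 with quantile normalization and 0.15 with a floor of 20. The SD of the housekeeping genes stayed within 1.5 times in the 3 settings tried. No paired analysis was possible because the labels carry no replicate numbers and each group holds 1 library, and leaving out a library leaves no comparison. Depth limits genes near the background most: IL15 and APOL6 are measured from the floor only, and nothing under the floor can be ordered.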

Other observations

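Genes of cell shape and tissue contact, which the comparison above left aside, had list medians above that of the panel. Of 9 compared adhesion genes 3 were below the panel median of 0.22 and 9 above 0, as were 267 of all 359 genes, with a median log2 difference of 0.47 and 0 calls: the integrin chains ITGA4 (72 and 96 counts at 24 and 48 h) and ITGA6 (204 and 242) were at 0.94 and 0.77 and the neural adhesion molecule NCAM1 (135 and 163) at 0.80. Of 8 compared matrix genes 3 were below the panel median and 8 above 0, with a median of 0.48, the laminin chain LAMA1 (108 and 140 counts) being highest at 0.90 and the proteoglycan VCAN (487 and 514) at 0.60. Some members of both lists, EPCAM among them, were under the floor at 24 h alone. Such a gene cannot fall below 0, so the counts above 0 and the medians follow in part from this rule. With equal medians the list medians were 0.12 and 0.27, beside -0.05 for all genes. That setting moves all genes above the floor at both times alike, so it is no further check. As reported, 0 members were called. In EV the adhesion median was 0.08 and the matrix median -0.41.

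Among the most abundant messages were those for the ribosomal proteins RPL23 and RPL7A, which were chosen after their values were seen. RPL23 had 52182 counts untreated, 37221 at 24 h and 38971 at 48 h, and RPL7A 28581, 18104 and 20613, log2 differences between the times of 0.59 and 0.71. In EV the same 2 genes were at -0.35 and -0.41.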
